A study of Mus musculus with 11 samples.

Results

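Transcripts of 10 genes that the forkhead transcription factors of the FOXO family are known to drive were followed in the mouse hippocampus after insulin was given through the nose. The genes were picked by name: Bcl6, Cited2, Klf15, Txnip, Sesn1, Sesn3, Ccng2, Cdkn1b, Bcl2l11 and Gadd45a. All 10 were found among the 46202 gene symbols of the expression table, and each had a value in all 11 libraries. Of the 10, Klf15 rose at 1 h (1.59-fold), no member fell past the test's threshold at any time, and Bcl6 and Cited2 were higher than in saline at 15 min and 1 h without passing the threshold.

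FOXO factors sit in the nucleus and activate genes of fasting, growth arrest, stress defence and cell death when insulin and growth factor signalling is low. When insulin binds its receptor, the kinases PI3K and AKT act in turn, AKT phosphorylates the FOXO proteins, and these leave the nucleus, so their target transcripts are known to fall in tissues such as liver and muscle. Several of these genes also answer to other signals, and Klf15 is a known target of the glucocorticoid receptor.

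RNA was measured by sequencing of total hippocampal RNA from male C3-C57B1/6J mice aged 2 to 3 months, housed singly. The saline group (3 libraries) carries the time label 0 min and the treatment label untreated, while its titles name saline. The insulin groups received 2.4 IU in each nostril and were collected at 15 min (2 libraries, replicates 1 and 3), 1 h (3 libraries) and 6 h (3 libraries), under isoflurane. No saline library belongs to a later time, so insulin cannot be told apart from the handling, anaesthesia or time of day that a mouse met between dosing and collection. The labels give 3 mice for each time but do not tie each library to 1 mouse, so p-values here reflect only how these libraries vary, which may be technical.

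Values are the deposited log2 signals, 1 per gene and library, which the authors had brought to a shared distribution. Sequencing depth is unknown, and the scaling by gene length is not given in the sources used here, so levels were compared between libraries and not between genes. A change is a difference of group means on the log2 scale from limma with its standard error (SE), and a gene was called when its Benjamini-Hochberg adjusted p over all rows tested was below 0.05. In bulk tissue, fewer cells of a type and less RNA per cell cannot be told apart. Each library held values for between 32037 and 33653 genes. The saline libraries held 33505, 32941 and 33510. All 15 min (32427 and 32037) and 1 h libraries (32448, 32133 and 32640) held fewer. Those of 6 h held 32912, 32703 and 33653. The median over rows with a value in every library was -1.86, -1.94 and -1.86 in saline. It was below these in each 15 min and 1 h library (-1.99 or less), and -1.94, -1.98 and -1.83 at 6 h. How far this bears on the changes over all rows or of the members was not tested. The row Rn18s-rs5, an 18S ribosomal RNA sequence, lay between 13.05 and 16.00 in saline, 9.67 and 10.49 at 15 min, 10.18 and 10.51 at 1 h, and 11.04 and 12.19 at 6 h. Saline thus stood above every insulin library in that row, and the part of this in the members' results was not tested.

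The sequences just before the start sites are given for the members that stood apart from saline at 15 min and 1 h, and for those that carry the FOXO element, since they show which known binding letters lie there. They are RefSeq sequences of GRCm38.p6, 250 bases before the annotated start, found for 10 of 10 members in 13 windows. Both strands were searched for 5 motifs: the FOXO element GTAAACA, its variant ATAAACA, the insulin response element CAAAACA, the E box CACGTG (a site of basic helix-loop-helix factors, the same on both strands) and the glucocorticoid response element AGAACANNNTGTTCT. Capitals mark the matches. The Klf15 window at chr6:90462326-90462575 (plus strand, inside the RefSeq span of the gene) has 2 E boxes, ending 222 and 166 bases before the start. The Bcl6 window at chr16:23988853-23989102 (minus strand, its last bases inside the RefSeq span of the gene) has 1 E box, 54 bases before the start. The Cited2 window at chr10:17722978-17723217 (plus strand, 240 bases, without the 10 that GENCODE places in an exon) has 1, 147 bases before the start. The Txnip window at chr3:96557707-96557956 (plus strand, inside the span of the antisense gene Gm15441) and the Bcl2l11 window at chr2:128125788-128126037 (plus strand) each have 1 FOXO element, 114 and 220 bases before the start.
Klf15: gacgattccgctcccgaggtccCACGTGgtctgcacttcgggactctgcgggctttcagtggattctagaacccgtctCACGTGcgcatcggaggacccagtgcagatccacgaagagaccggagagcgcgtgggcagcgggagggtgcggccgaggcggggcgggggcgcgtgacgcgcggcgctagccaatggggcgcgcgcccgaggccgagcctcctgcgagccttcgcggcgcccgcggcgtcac
Bcl6: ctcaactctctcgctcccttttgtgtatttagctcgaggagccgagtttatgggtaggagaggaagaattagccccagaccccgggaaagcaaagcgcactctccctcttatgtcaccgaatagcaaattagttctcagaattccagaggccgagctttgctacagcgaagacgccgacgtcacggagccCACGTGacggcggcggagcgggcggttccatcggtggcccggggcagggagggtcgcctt
Cited2: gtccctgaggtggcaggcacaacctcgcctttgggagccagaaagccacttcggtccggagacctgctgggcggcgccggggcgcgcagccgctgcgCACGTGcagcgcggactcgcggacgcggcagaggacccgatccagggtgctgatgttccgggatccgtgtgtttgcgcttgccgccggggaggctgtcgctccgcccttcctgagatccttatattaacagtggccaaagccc
Txnip: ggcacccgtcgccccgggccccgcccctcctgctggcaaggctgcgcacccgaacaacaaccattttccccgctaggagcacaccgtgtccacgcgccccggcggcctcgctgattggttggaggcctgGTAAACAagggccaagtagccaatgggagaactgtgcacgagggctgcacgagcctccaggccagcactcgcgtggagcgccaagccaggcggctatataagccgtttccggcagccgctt
Bcl2l11: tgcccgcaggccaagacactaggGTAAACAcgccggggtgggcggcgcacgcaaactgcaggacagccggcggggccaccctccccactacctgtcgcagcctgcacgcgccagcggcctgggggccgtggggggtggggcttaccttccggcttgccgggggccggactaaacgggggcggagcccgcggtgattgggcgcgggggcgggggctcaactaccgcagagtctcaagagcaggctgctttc

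The E box was in 6.02% of all 32851 windows of that length and in 3 of the 13 windows of members, of Klf15, Bcl6 and Cited2. GTAAACA was in 3.17% of windows and in 2 of the 13, of Txnip and Bcl2l11. Bcl6 and Bcl2l11 each have another window, at chr16:23981284-23981533 and chr2:128127325-128127574, with no match. CAAAACA was in 5.56% of windows and in 1 of the 13, that of Ccng2, which encodes an atypical cyclin. The match ended 9 bases before the RefSeq start, in a window that GENCODE places in an exon of Ccng2. ATAAACA (4.16% of windows) and the glucocorticoid response element (0.00913%) were in none of the members' windows. A match describes these letters only, and elements further away were not searched.

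Klf15, a Krüppel-like factor of fasting metabolism that also acts in amino acid breakdown, lies at chr6:90461043-90491803 (RefSeq, GRCm38.p6). Its log2 signal in saline was 0.93, 0.86 and 1.14. At 15 min it was 1.62 and 1.44, at 1 h 1.62, 1.74 and 1.59, and at 6 h 1.16, 1.31 and 1.30. Every insulin library was above every saline library, the 1 h libraries stood highest on average, and the lowest 6 h library was just above the highest saline one. Against saline the log2 change was 0.55 (SE 0.10, adjusted p = 0.075) at 15 min, 0.67 (SE 0.091, adjusted p = 0.0118) at 1 h and 0.27 (SE 0.091, adjusted p = 0.683) at 6 h. Group means were 0.98 ± 0.15 (SD, n = 3) in saline, 1.53 ± 0.12 (SD, n = 2), 1.65 ± 0.081 (SD, n = 3) and 1.25 ± 0.084 (SD, n = 3). Of these changes, the one at 1 h passed the threshold, and with each library centred on its median the 15 min change of 0.72 passed too (adjusted p = 0.0318). The main 1 h change was larger than that of 96.7% of all rows tested. Without saline replicate 1, saline replicate 2, 1 h replicate 1 or 1 h replicate 2, taken singly, the adjusted p at 1 h was 0.0670, 0.0553, 0.0582 and 0.0607, so the call rests on all of these libraries. Over all 8 insulin libraries the change was 0.50 (SE 0.076, adjusted p = 0.0251). The F test over the 3 changes against saline, which asks for any difference among the 4 groups, gave an adjusted p of 0.0456. These calls were lost without a mean-variance trend and in 6 and 10 of the 11 runs that left out 1 library. The all-insulin call was also lost when the insulin libraries were fitted as 1 group with saline (adjusted p = 0.179).

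**Figure D1:**
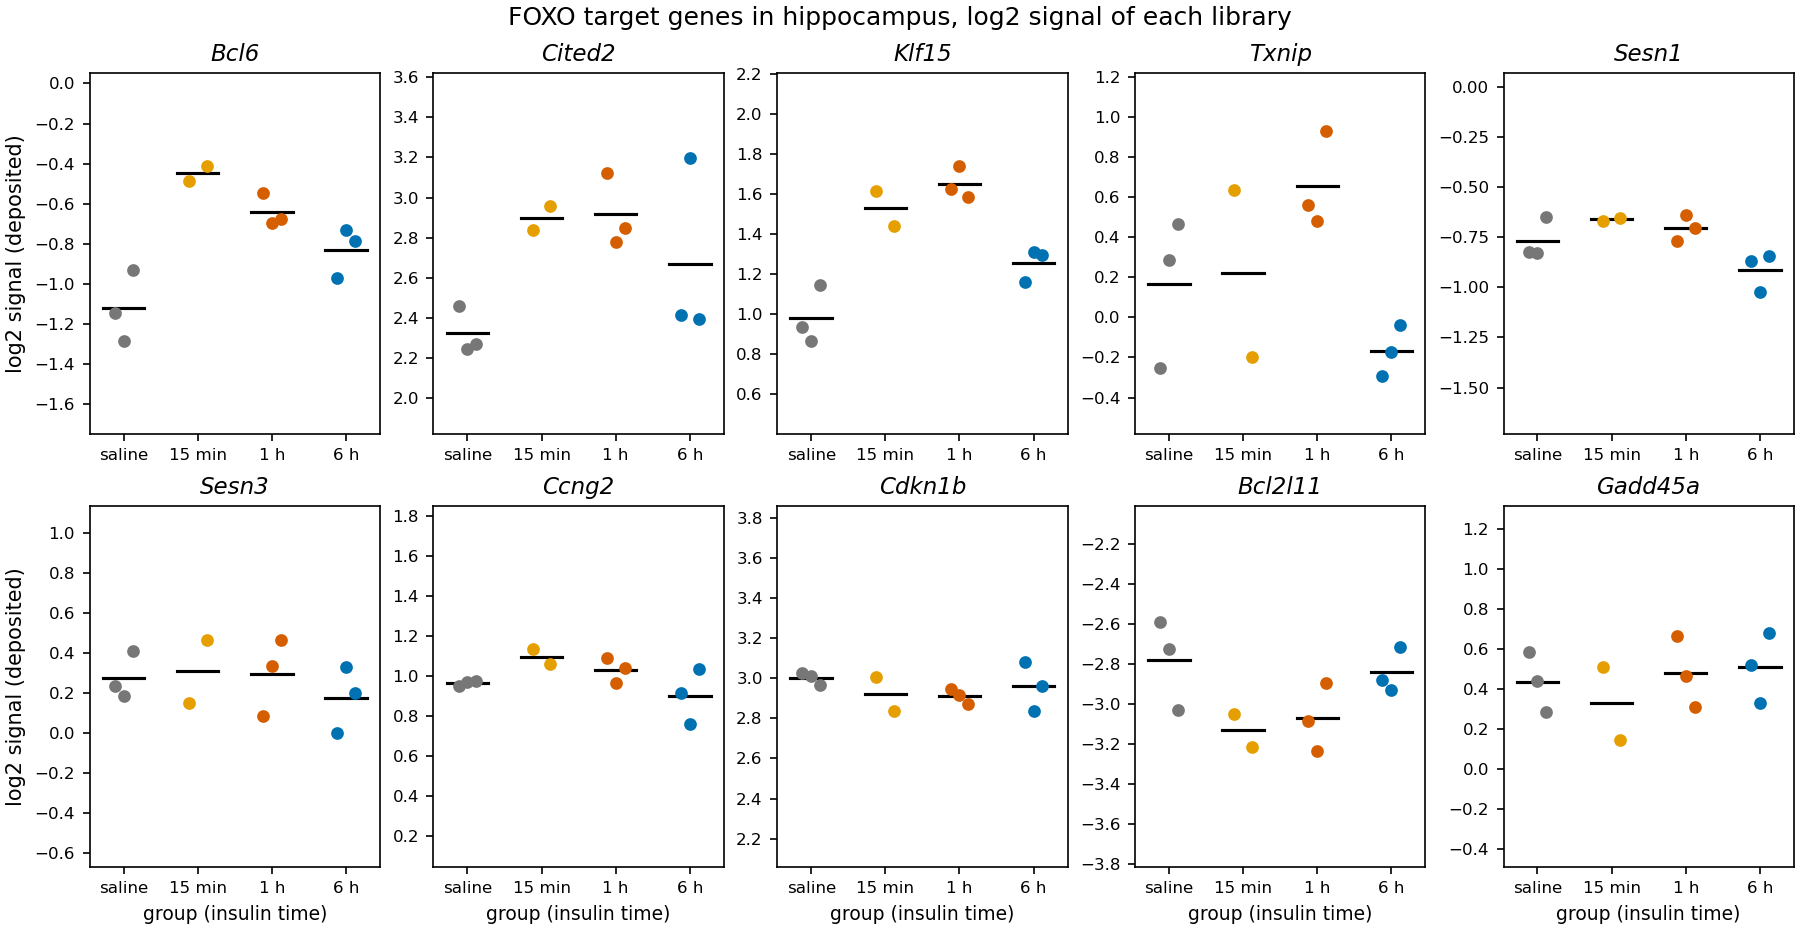
Deposited log2 signal of the 10 FOXO target genes, 1 panel per gene, against the group (saline, then insulin at 15 min, 1 h and 6 h). Each point is 1 library (3, 2, 3 and 3 per group), bars are group means, and every vertical axis spans the same log2 range, placed at a different level for each gene. Klf15, Bcl6 and Cited2 stand above saline at 15 min and 1 h, while Sesn3 and Gadd45a overlap saline at all 3 times.

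Bcl6, a transcriptional repressor best known from germinal centre B cells that also restrains inflammatory and lipid genes, lies at chr16:23965050-23988866. Its log2 signal was -1.15, -1.28 and -0.93 in saline and -0.49 and -0.41 at 15 min. At 1 h it was -0.55, -0.70 and -0.68, and at 6 h -0.97, -0.73 and -0.79. The 15 min and 1 h libraries were all above saline, the 15 min pair was highest, and 1 of the 6 h libraries lay below the highest saline library. The change was 0.67 (SE 0.12, adjusted p = 0.0725) at 15 min, 0.48 (SE 0.11, adjusted p = 0.0782) at 1 h and 0.29 (SE 0.11, adjusted p = 0.702) at 6 h, none past the threshold. The short GENCODE gene Gm37419 overlaps Bcl6 on the other strand and has no row in the expression table. Strand use in the counting is not given in the sources used here. After each library was centred on its median, the 15 min change was 0.84 (adjusted p = 0.0318) and the 1 h change 0.62 (adjusted p = 0.0444), both past it.

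Cited2, a coactivator partner of CBP and p300 that limits hypoxia-inducible factor activity, lies at chr10:17723228-17725674. It gave 2.46, 2.24 and 2.27 in saline and 2.84 and 2.96 at 15 min. At 1 h it gave 3.12, 2.78 and 2.85, and at 6 h 2.41, 3.20 and 2.39. Both early groups were wholly above saline, and at 6 h replicate 2 stood far above the other two, which lay among the saline values. The change was 0.57 (SE 0.22, adjusted p = 0.258) at 15 min, 0.59 (SE 0.19, adjusted p = 0.183) at 1 h and 0.34 (SE 0.19, adjusted p = 0.721) at 6 h. Without 6 h replicate 2 the 1 h SE was 0.095 with the same change, the 1 h adjusted p was 0.0259, and the 6 h change was 0.08.

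Txnip, a thioredoxin inhibitor that also slows glucose uptake and is strongly induced by glucose, lies at chr3:96557957-96561857. Its log2 signal was -0.25, 0.29 and 0.47 in saline and 0.64 and -0.20 at 15 min. At 1 h it was 0.56, 0.48 and 0.93, and at 6 h -0.29, -0.18 and -0.04. The 1 h libraries were all above saline, the pair at 15 min lay far apart, and all 6 h libraries were below all 1 h libraries. The change against saline was 0.05 (SE 0.26, adjusted p = 0.943), 0.49 (SE 0.23, adjusted p = 0.352) and -0.34 (SE 0.23, adjusted p = 0.743) at the 3 times. From 1 h to 6 h the change was -0.83 (SE 0.23, unadjusted p = 0.00545, adjusted p = 0.253).

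Gm15441, a GENCODE antisense gene on the other strand, spans Txnip whole. Without stranded counting, reads of this pair cannot be told apart, and how strand was used is unknown here. Gm15441 was -0.05, 0.01 and 0.27 in saline, 0.86 and 0.49 at 15 min, 0.90, 0.97 and 0.55 at 1 h, and 0.54, 0.06 and 0.44 at 6 h. Its 15 min and 1 h libraries were all above saline, with changes of 0.60 (SE 0.18, adjusted p = 0.191) and 0.73 (SE 0.16, adjusted p = 0.0747). At 15 min replicate 3 Txnip was low while Gm15441 was above saline, so the 2 rows did not hold the same values.

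**Figure D2:**
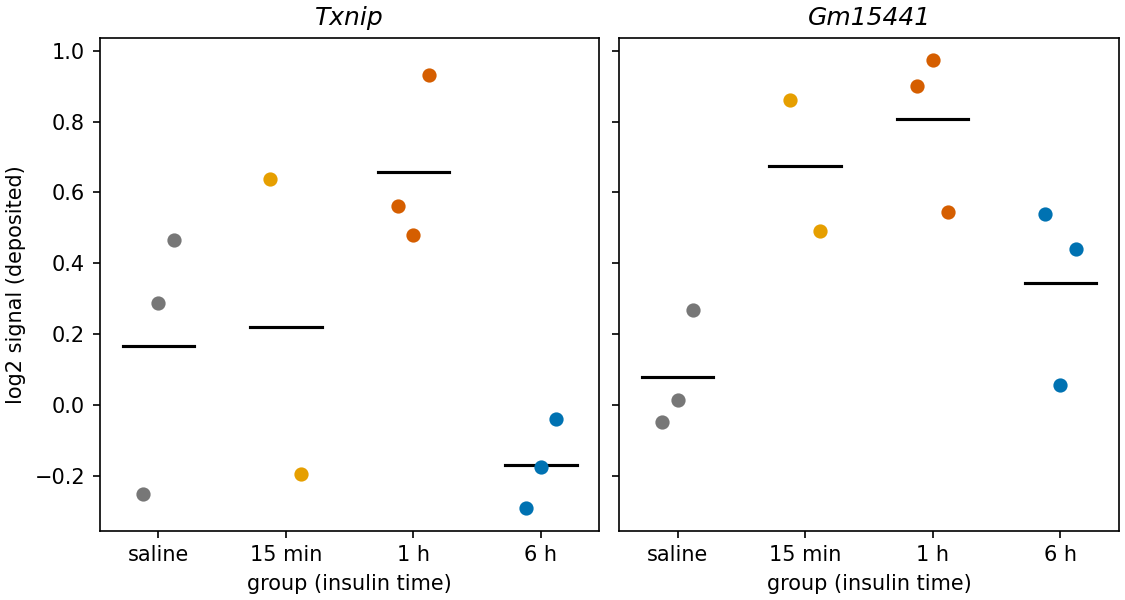
Deposited log2 signal of Txnip (left) and of Gm15441, the antisense gene that spans it (right), by group; points are libraries and bars are group means on a shared vertical axis. Txnip spreads from -0.20 to 0.64 at 15 min and is lowest at 6 h, while Gm15441 is above saline in both 15 min libraries and in all 3 at 1 h.

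The sestrins are stress proteins that restrain the growth kinase complex mTORC1. Sesn1 was -0.82, -0.83 and -0.65 in saline, -0.67 and -0.65 at 15 min, -0.77, -0.64 and -0.70 at 1 h, and -0.87, -1.02 and -0.84 at 6 h. The 6 h libraries were the lowest group, all below saline, and the earlier insulin groups overlapped saline. The 6 h change was -0.15 (SE 0.089, adjusted p = 0.726). Sesn3 was 0.19 to 0.41 in saline, 0.15 and 0.47 at 15 min, 0.08, 0.33 and 0.46 at 1 h, and -0.0008, 0.33 and 0.20 at 6 h. All of its groups overlapped saline. Its change was 0.03, 0.02 and -0.10 at the 3 times, with a 95% interval from -0.27 to 0.31 at 1 h. The GENCODE gene 9930024M15Rik lies within Sesn1 on the same strand and has no row in the expression table. Reads of the shared stretch may be held in the Sesn1 row, and how they were counted is not given in the sources used here.

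Among the members that hold back the cell cycle, none changed past the threshold. Ccng2 was 0.95, 0.97 and 0.98 in saline and 1.14 and 1.06 at 15 min, so the groups did not overlap, though the change was only 0.13 (SE 0.088, adjusted p = 0.507). At 1 h it was 0.97 to 1.09, and at 6 h 0.76 to 1.03, both overlapping saline. Cdkn1b, the CDK inhibitor p27, was 3.03, 3.01 and 2.97 in saline and 2.95, 2.92 and 2.87 at 1 h. It was 3.01 and 2.84 at 15 min and 3.08, 2.83 and 2.96 at 6 h. The 1 h libraries were just below the lowest saline one, while the other groups overlapped saline. At 1 h it had a change of -0.09 (SE 0.076, adjusted p = 0.619, 95% interval -0.26 to 0.08), which became 0.05 when each library was centred on its median. Gadd45a, a DNA damage and growth arrest protein, was 0.28 to 0.58 in saline, 0.14 and 0.51 at 15 min, between 0.31 and 0.66 at 1 h, and between 0.33 and 0.68 at 6 h. It overlapped saline at every time, with a change of 0.04 at 1 h (95% interval -0.26 to 0.35).

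The gene E230016M11Rik overlaps Gadd45a on the other strand, so the same limit on strand holds. It was -0.17, -0.24 and -0.08 in saline and -1.21, -0.85 and -0.99 at 1 h. All 1 h libraries were below saline, and the row fell by 0.85 (SE 0.11, adjusted p = 0.0111), while Gadd45a did not pass the threshold.

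Bcl2l11 encodes BIM, a BH3-only protein that starts mitochondrial cell death, and lies at chr2:128126038-128162547. It was -2.59, -2.73 and -3.03 in saline and -3.05 and -3.22 at 15 min. At 1 h it was -3.09, -3.24 and -2.90, and at 6 h -2.88, -2.93 and -2.71. The 15 min pair lay just below the lowest saline library, and the later groups overlapped saline. The change was -0.35 (SE 0.18, adjusted p = 0.397) at 15 min, -0.29 (SE 0.16, adjusted p = 0.430) at 1 h and -0.06 (SE 0.16, adjusted p = 0.930) at 6 h. The 15 min and 1 h changes were the lowest of the 10 members.

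**Figure D3:**
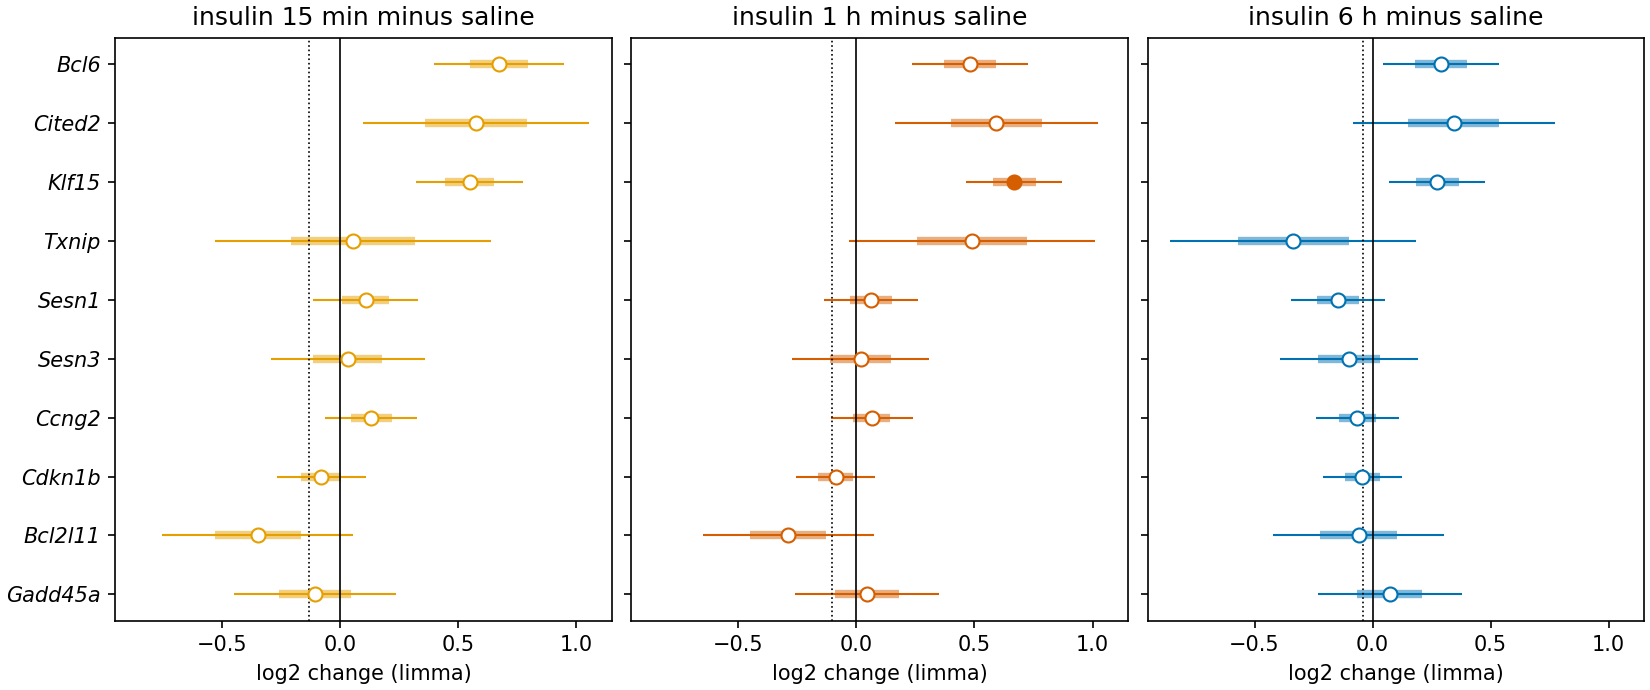
Log2 change against saline (horizontal axis) of each of the 10 genes (vertical axis), at 15 min, 1 h and 6 h. Points are limma estimates, thick bars are 1 SE, thin bars are 95% intervals, filled points passed an adjusted p of 0.05, and the dotted line is the median of all rows tested. The only filled point is Klf15 at 1 h, at 0.67.

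Over the list, 0 of 10 members were called at 15 min (0.239% of all rows tested were called), 1 at 1 h (0.877%), 0 at 6 h (0.00%) and 1 over all insulin libraries (0.452%). The F test over the 3 changes against saline called 1 (0.365%). At an unadjusted limma p under 0.05, 3 members were higher at 15 min (1.86% of rows), 3 at 1 h (2.87%), 2 at 6 h (2.75%) and 3 over all insulin libraries (2.83%), and 0 members were lower at any of these. Over all rows, the share lower at that p was 13.2% at 15 min, 12.8% at 1 h, 4.23% at 6 h and 12.0% over all insulin libraries. The 3 at 15 min, at 1 h and over all insulin libraries were Klf15, Bcl6 and Cited2, and the 2 at 6 h were Klf15 and Bcl6. Every insulin library was above every saline library for 4 members at 15 min (6.86% of rows), 4 at 1 h (6.29%), 1 at 6 h (4.27%) and 1 over all insulin libraries (0.718%). Klf15, Bcl6 and Cited2 were among the 4 at both times, with Ccng2 at 15 min and Txnip at 1 h, and the 1 at 6 h and over all was Klf15. Wholly below saline were 1 member at 15 min (Bcl2l11), 1 at 1 h (Cdkn1b) and 1 at 6 h (Sesn1). Of 25771 rows with a value in every library, 8138, 5625 and 2293 were wholly below saline at these times. Over all insulin libraries, 0 members and 1086 rows were wholly below. The members' median change was 0.08, 0.06 and -0.05 at the 3 times, beside medians of -0.14, -0.11 and -0.04 over all rows tested. Counted by library, 8 and 6 of the 10 members were above their saline mean at 15 min, 6, 7 and 7 at 1 h, and 5, 4 and 6 at 6 h, with 4, 5 and 6 in the saline libraries. Relative to the shift of all rows, Klf15 was 0.68 higher at 15 min and 0.77 at 1 h, Bcl6 0.81 and 0.59, and Cited2 0.71 and 0.70. Since the 3 comparisons share the saline libraries, they are not independent.

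Between the insulin times no member was called: 0 of 10 from 15 min to 1 h (0.00% of rows), 0 from 1 h to 6 h (0.0108%) and 0 from 15 min to 6 h (0.00723%), by limma. At an unadjusted p under 0.05, 0 members differed from 15 min to 1 h (3.49% of rows did). From 1 h to 6 h, 3 members were lower (2.17% of rows): Klf15 by a change of -0.40 (adjusted p = 0.199), Txnip by -0.83 and Sesn1 by -0.21 (adjusted p = 0.425). From 15 min to 6 h, 4 members were lower at an unadjusted p under 0.05 (2.47% of rows). They were Bcl6 (-0.38, adjusted p = 0.239), Klf15 (-0.27, adjusted p = 0.281), Sesn1 (-0.25, adjusted p = 0.302) and Ccng2 (-0.20, adjusted p = 0.350).

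The FOXO factors themselves were measured in all libraries, and 0 of 4 were called at any time, with 0 at an unadjusted p under 0.05. Foxo3, prominent in brain, was -0.01, -0.07 and -0.02 in saline and -0.02, 0.07 and 0.13 at 1 h, and the change was 0.09 (SE 0.076). Foxo1, the main insulin-regulated factor of liver, ranged from -1.94 to -1.11 in saline and from -1.89 to -1.07 at 1 h, with a change of 0.02 (SE 0.27). Foxo4 was 0.469, 0.347 and 0.518 in saline and 0.554, 0.524 and 0.541 at 1 h, with a change of 0.095 (SE 0.093). Its 6 h change was 0.20 (SE 0.093, limma adjusted p = 0.721). Foxo6 spread over -3.83 to -2.39 within saline alone. Insulin acts on these proteins mainly after translation, which these RNA values do not show.

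Of 34 upstream regulators (receptors, PI3K and AKT subunits, 14-3-3 proteins, deacetylases and others), 1 was called higher at 15 min and at 1 h and 0 at 6 h, where 1 was higher and 1 lower at an unadjusted p under 0.05. The called gene was Sgk1, a kinase that can phosphorylate FOXO3 and is also induced by glucocorticoids. It was -0.74, -0.71 and -0.04 in saline, 0.72 and 0.56 at 15 min, and 0.45, 0.61 and 0.50 at 1 h. All early libraries were above saline, and the change was 1.13 (SE 0.18, adjusted p = 0.0468) at 15 min and 1.01 (SE 0.16, adjusted p = 0.0239) at 1 h. The list's median change was 0.02 at 15 min and -0.01 at 1 h.

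Among 40 other known FOXO targets, 37 were tested and 1 was called, higher, at 15 min and at 1 h, with 0 called at 6 h (5 higher and 2 lower at an unadjusted p under 0.05). This was Pdk4, the kinase that shuts pyruvate dehydrogenase in fasting. It was -1.44, -1.49 and -1.16 in saline, -0.17 and -0.02 at 15 min, -0.32, -0.17 and -0.04 at 1 h, and -1.28, -1.40 and -0.88 at 6 h. The early libraries were all above saline, and the 6 h libraries overlapped it. The change was 1.27 (SE 0.17, adjusted p = 0.0201) at 15 min, 1.18 (SE 0.15, adjusted p = 0.00867) at 1 h and 0.18 (SE 0.15, adjusted p = 0.768) at 6 h. Irs2, an adaptor of the insulin receptor, had changes of 0.34, 0.33 and 0.20, and Insr, the receptor, -0.02, -0.08 and -0.01, none past the threshold. The median over the 37 was -0.01, 0.00 and 0.08 at the 3 times. Of 25 relatives of the members (other Klf, Cited, arrestin-domain, sestrin, cyclin, CDK inhibitor, BH3-only and Gadd45 genes), 0 were called at any time, with 5, 6 and 6 higher and 3, 2 and 0 lower at an unadjusted p under 0.05. The counts of lower relatives are near or below the shares of all rows given above. Those of higher relatives are above the shares of all rows (1.86%, 2.87% and 2.75%). Klf2 and Klf4 were not in this list of relatives and were counted among the immediate early genes, as given below.

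Lists of other signals that share targets with FOXO were set beside these. Of 22 glucocorticoid-responsive genes, 3 were called higher at 15 min (Pdk4, Fkbp5 and Sgk1), 6 at 1 h (among them Pdk4, Fkbp5, Nfkbia and Sgk1) and 0 at 6 h, where 9 were higher and 0 lower at an unadjusted p under 0.05. Fkbp5, a cochaperone of the glucocorticoid receptor, was -2.02, -2.25 and -1.65 in saline and -1.03, -0.93 and -1.04 at 1 h, a change of 0.98 (SE 0.15, adjusted p = 0.0209). The list's median change was 0.57, 0.47 and 0.18. Of 20 immediate early genes, 6 were called higher at 15 min (among them Klf4, Fos, Klf2 and Cyr61) and 6 at 1 h (among them Klf4, Fos, Klf2 and Fosb), and 0 at 6 h (5 higher and 0 lower at an unadjusted p under 0.05), with medians of 1.09, 0.76 and 0.15. In each of 3 further lists, of p53 targets (17 tested), clock genes (17) and the glucose sensor pathway of MondoA and ChREBP (9), 0 genes were called at any time, with 4, 5 and 2 at an unadjusted p under 0.05 at 15 min, 3, 5 and 1 at 1 h, and 2, 1 and 0 at 6 h. In either direction, 15.1%, 15.7% and 6.98% of all rows had such a p at the 3 times. Higher at that p were 1.86%, 2.87% and 2.75% of all rows. In the same order of lists, 3, 4 and 0 genes were higher at 15 min. At 1 h, 2, 3 and 0 were higher, and at 6 h 2, 1 and 0. Lower were 1, 1 and 2 at 15 min, 1, 2 and 1 at 1 h, and 0 in each list at 6 h. Sgk1 and Pdk4 each count in 2 of these lists. The part of these signals in the members' changes was not tested.

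**Figure D4:**
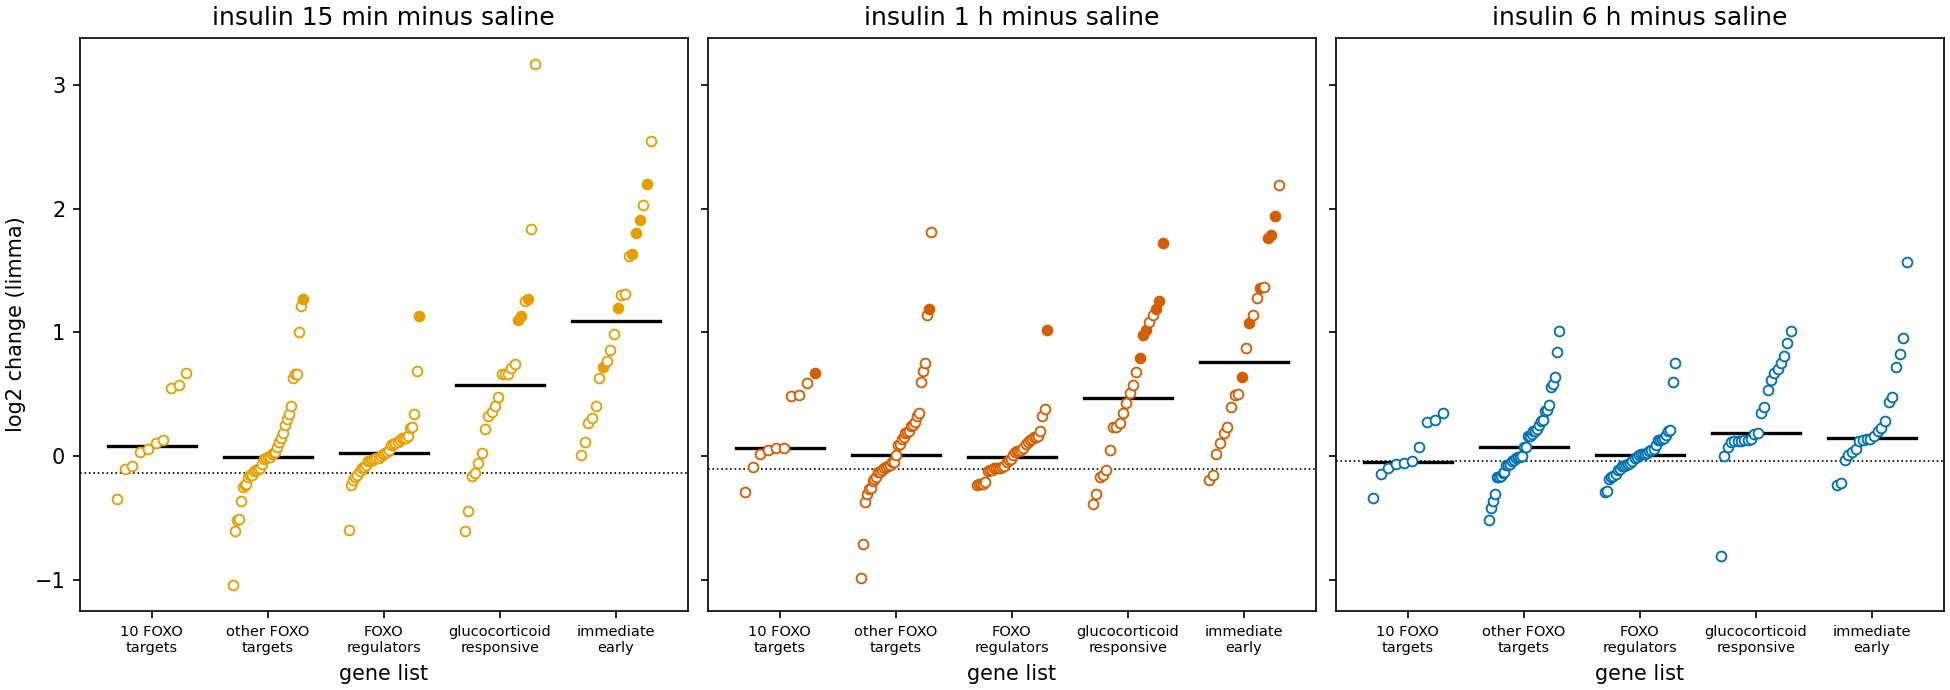
Log2 change against saline (vertical axis) of single genes in 5 lists, at 15 min, 1 h and 6 h. Circles are genes in order of their change, filled where the adjusted p was below 0.05, black bars are list medians, and the dotted line is the median of all rows tested. The members' medians are 0.08, 0.06 and -0.05 at the 3 times, and Klf15, Bcl6 and Cited2 are the highest members at 15 min. The lowest members are Bcl2l11 at 15 min (-0.35) and 1 h (-0.29) and Txnip at 6 h (-0.34). Glucocorticoid-responsive and immediate early genes have medians of 0.57 and 1.09 at 15 min.

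The rows whose profile over the 11 libraries was nearest to that of Klf15, by the root mean square difference of log2 values from each row's saline mean, were Rhpn2 (0.0815), Plekhf1 (0.124) and Wbp1l (0.131), out of 16538 rows compared (named genes with a value in every library). A flat row would lie 0.452 from Klf15. Plekhf1 encodes a protein with PH and FYVE domains. The 1 h changes of these 3 rows were 0.62 (adjusted p = 0.0465), 0.67 (adjusted p = 0.0219) and 0.51 (adjusted p = 0.0488). These rows were picked by their likeness to Klf15 in the same libraries, so such changes follow from that choice.

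The labelled tissue was checked against its markers. All 12 hippocampal markers were tested and 0 were called, and their summed log2 level was 3.61 to 4.30 in saline, while at 15 min it lay between 3.90 and 4.07, at 1 h between 3.43 and 3.76 and at 6 h between 3.62 and 3.74. Summed markers of astrocytes, the glia that ensheath vessels and synapses, lay between 7.15 and 7.25 in saline, 7.21 and 7.26 at 15 min, 7.17 and 7.32 at 1 h, and 7.11 and 7.27 at 6 h on the log2 scale. Neuron markers lay between 5.97 and 6.04, 5.90 and 6.16, 5.89 and 5.99, and 5.94 and 5.98 in the same order. Endothelial markers were 3.59 to 4.19 in saline and 3.21 to 3.53 at 15 min, and pericyte and mural markers 3.54 to 3.62 and 3.05 to 3.24, so both sums were lower at 15 min without overlap. At 1 h they were also wholly below saline, at 3.33 to 3.49 and 3.10 to 3.45. At 6 h the pericyte and mural sum (3.08 to 3.42) was still wholly below saline, and the endothelial sum (3.54 to 3.89) overlapped it. Striatal markers were 3.17 to 3.61 in saline and 3.998 to 4.23 at 15 min, higher without overlap, and overlapped saline at 1 h (3.18 to 4.77). In the marker lists reported here, none of the 8 endothelial, 8 pericyte and mural, 9 striatal, 8 astrocyte or 9 neuronal markers was called at any time. Choroid plexus markers lay between 5.33 and 5.94 in saline, 4.83 and 7.06 at 15 min, 1.79 and 6.47 at 1 h, and 0.49 and 4.58 at 6 h, with 0 of 9 called. Of 8 neocortex markers, 1 was called, higher, at 1 h, Nr4a2, which is also an immediate early gene. At any time, 0 of 8 oligodendrocyte and 0 of 7 blood markers were called. The blood sum was 6.49 to 6.80 in saline and 6.01 to 6.34 at 6 h, wholly below saline, and overlapped it at 15 min and 1 h. Of all rows tested, 0 were called at 6 h. The part of these cell types in the members' results was not tested.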

How the data were processed

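Total RNA of hippocampus was sequenced in 11 libraries. The authors deposited 1 table of log2 signals per gene symbol. Per the submitters' processing notes, bcl2fastq, Partek 6.7 and GRCm38 were used; no source used here gives the aligner, the counting, its use of strand or the length scaling. The deposited log2 values share minimum, median and maximum between libraries, as quantile normalisation leaves them. Base 2 was read from the values: differences between saline replicates 1 and 3 in rows that reach low values peaked between 0.9 and 1 and between 1.5 and 1.6, near the log2 steps of small whole counts. Depth is unknown, so no interval for counting error can be given.

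Rows in the lowest 40% by mean were left out (missing cells set to the table minimum for that ranking only), which kept 27721 of 46202 rows and all 10 members. Missing cells were otherwise not filled. limma 3.58.1 in R 4.3.3 was fitted to all 4 groups with a mean-variance trend, and p-values were adjusted by Benjamini-Hochberg over all rows tested, with a threshold of 0.05. The procedure was tested on simulated data.

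The members and the 21 gene lists were chosen with earlier results of these data known; the list of genes that overlap a member was added after their values were seen. The text names all members, the FOXO factors, Pdk4, Irs2 and Insr, up to 4 called genes per list, direction and time by p, and the 3 rows nearest in profile to a called member. Genes that overlap a member are named beside the results they touch. The result of 1 marker list is not reported here. Alternatives were another filter, complete rows, other scalings, an offset of 1 on the linear signal, no trend, fewer groups, a replicate block and leaving out each library. Promoter windows come from RefSeq (GRCm38.p6) and overlaps from GENCODE.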

Additional observations from a re-analysis of the deposited data

How the results depend on the processing

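For changes of single members, runs that left out 1 library gave 517 values over 47 results: 475 kept direction and side of the threshold, 10 lost the call, 1 gained it and 31 changed sign. The other alternatives gave 376 values, of which 359 were unchanged in this sense, 3 lost the call, 6 gained it and 8 changed sign. The number of members called at 15 min (0) was 2 with median centring. At 1 h (1) it was 2 with median centring and 0 to 2 without 1 library; Klf15 kept its call there in all 8 other alternatives and in 7 of 11 runs without 1 library. Over all insulin (1) it was 2 with cyclic loess, median centring or the offset, 0 with no trend, the replicate block or only the groups compared, and 0 to 1 without 1 library. For the F test (1) it was 0 with no trend or the replicate block, and 0 to 1 without 1 library. At 6 h and between insulin times it was 0 under every alternative run.

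Signs turned for small changes. With median centring, Cdkn1b was 0.091 at 15 min, 0.051 at 1 h and 0.044 over all insulin, Gadd45a 0.063 at 15 min and Sesn3 0.097 over all insulin. Over all insulin, Sesn3 was 0.035 with cyclic loess, Gadd45a -0.0074 with the replicate block and Sesn1 -0.0039 with only the groups compared. Without 1 library, the 15 min change ran from -0.36 to 0.47 for Txnip, -0.13 to 0.19 for Sesn3, -0.29 to 0.074 for Gadd45a and -0.17 to 0.0048 for Cdkn1b. The 1 h change ran from -0.068 to 0.12 for Sesn3 and -0.048 to 0.13 for Gadd45a. The 6 h change ran from -0.011 to 0.16 for Gadd45a, -0.10 to 0.020 for Cdkn1b, -0.13 to 0.0073 for Ccng2 and -0.18 to 0.038 for Bcl2l11. Over all insulin it ran from -0.14 to 0.22 for Txnip, -0.070 to 0.049 for Sesn3, -0.022 to 0.067 for Sesn1 and -0.072 to 0.077 for Gadd45a. The causes were not tested.

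The replicate numbers were not taken to pair the libraries, since the labels tie them to no shared mouse or day. Deviations from the group means correlated above 0.1 in 7 of 15 same-numbered pairs (range -0.056 to 0.24) and in 5 of 30 differently numbered pairs. Of 11 libraries, 6 correlated best with one of their own number. The 2 libraries at 15 min deviate from their mean by exact opposites, so these counts are partly fixed and cannot decide on pairing. With the replicate block, the adjusted p of Klf15 over all insulin was 0.0666.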
